A study of Mus musculus with 4 samples.

Results

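In gonadal adipose tissue of F1 mice, 3657 SNPs lay in stretches that the count files assign to an exon and that the variant annotation in the same files calls intronic. They were chosen by these 2 columns alone, on the autosomes, with different bases listed for the C57BL/6J (B) and DBA/2J (D) strains, and no threshold on reads was set. The files list few SNPs without a read (4 of these 3657), so that SNPs without coverage are largely absent. They make up 7.448% of the 49099 exon SNPs and fall into 1268 exon segments of 992 genes. The allele reads came from 4 RNA pools of chow-fed F1 animals, females and males of the BxD cross and of the DxB cross. Values per pool always follow 1 order, BxD female first, then DxB female, then BxD male and last DxB male. All animals of all pools carry 1 B and 1 D chromosome set, so that neither strain serves as a control. Each name gives the mother's strain first. The labels give an age of 8 wk, whereas the methods give an older age, and they give 3 animals per pool, except 2 animals for the library labelled DxB female. RNA of several animals was pooled before sequencing, and p-values therefore measure the spread between pools. The main tests took the alleles of a pool as separate libraries and did not pair them. For the DxB female and BxD male pools, the label and the file name of the deposited library disagree. By file name the library labelled DxB female is the BxD male pool, whereas the study lists 2 animals for its DxB female pool. The file name was used, since with it 97.66 to 97.789% of the counts per gene equalled the counts per pool that the study lists, against 13.55 and 13.52% with the labels of these pools. Results on parent and on sex depend on that choice.

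An exon of one transcript can lie in an intron of another. A gene may start at several promoters, each with its own first exon, so that the first exon of one transcript sits within the first intron of the next. It may end at several poly(A) sites, one of them inside an intron, or keep an intron in a part of its messages. A second gene may be read from within an intron, from either strand. In an F1 animal both alleles are exposed to the same regulatory proteins, and an unequal read count of the alleles (allele-specific expression, ASE) is used to look for differences that act on the same chromosome and for imprinting. Whether such a segment follows the allele ratio of the gene it is named for can be read by comparing it with the gene's other exons.

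The segments that carry the results are shown first by the SNP with the most reads in each, as 29 bases of the plus strand of mm9 (NCBIM37). The capital is the base of the B strain at position 15, counted from the 5′ end of the window, and the substitution gives B first and D last. Coordinates are 1-based. The first set holds the segments in which the parents differed.
Trappc9, chr15:72640035-72640063, A15G: gtatcctcgcacgaActgcaccgacacag
H13, chr2:152508294-152508322, G15A: actaattatttcacGgtagcccagcagcc
Plagl1, chr10:12848950-12848978, C15T: ttaaacatcagttaCagtttgaggagaag
Meg3, chr12:110799291-110799319, C15G: acagacagacacagCgaaaaggctgagga

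The second set holds segments in which D exceeded B, among them 2 first exons of the Ugt1a locus.
Ugt1a10 (exon of Ugt1a7c), chr1:89992457-89992485, T15C: acgcacagactttgTcttggagttcccca
Ugt1a10 (exon of Ugt1a6a), chr1:90035352-90035380, G15T: ggtgcctccctgatGggtcctctaagaga
Recql5 (exon of 2210020M01Rik), chr11:115761617-115761645, A15T: gggacacctcttcgAggctccccactatc
Fau, chr19:6058056-6058084, G15A: gctcagagggtgcgGggaaggcaaagtac
Pdxdc1, chr16:13836023-13836051, C15T: cagtgaggcaggcaCctaccacaactcgg
Mtap7, chr10:19928274-19928302, G15A: ctgccatctgttttGcggcatcatggctg
H2-K1, chr17:34136848-34136876, C15T: cacgaactccgtgtCgtccacgtagccga

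The third set holds segments in which B exceeded D, and the last line shows, for comparison, a SNP in an exon of B2m with close to equal reads.
H2-K1, chr17:34136300-34136328, G15C: tctctgcttcaccaGcctgctcccacttg
Supt6h, chr11:78087234-78087262, T15G: acctacagtggctgTgccacgggaatcct
AC099702.12 (exon of Glul), chr1:155756110-155756138, T15A: ctcagcttcattacTgcttagggtttccc
Man1c1, chr4:134260089-134260117, A15G: ctcctgctgcgatcAcctgttcccggccc
Uba2, chr7:34953472-34953500, A15C: cccggccgccggacAccgcctcggccagc
Patl2 (exon of B2m), chr2:121976841-121976869, C15A: cagagttaagcatgCcagtatggccgagc

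At all 3657 SNPs the B base was the base of the NCBIM37 genome. Splice sites at the edges of segments were read from the same genome. Here 15 bases on each side of an edge are given on the strand of the transcript, with the first or last 2 intron bases in capitals (GT at a donor, AG at an acceptor).
Ugt1a9 first exon, donor, chr1:89968239-89968268: aagtcactttccaagGTatgctatatgttc
Ugt1a7c first exon, donor, chr1:89992539-89992568: aagccactttccaagGTacaccatcttccc
Ugt1a6a first exon, donor, chr1:90035892-90035921: ggaaagctgactcagGTgggtgactgatgc
2210020M01Rik, donor, chr11:115761642-115761671: tatctgagctcccagGTaagagacactggc
H13, acceptor, chr2:152506772-152506801: gtttttcctcctcAGatattctcccaggag
Ddx17, donor, chr15:79362087-79362116: gaggagggggtaaggGTaagtcctggaatt

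Of the 1268 segments, 406 (32.0%) had a splice acceptor AG before and a donor GT or GC after them on one strand, against 66.7% of the 20089 other exon segments. A further 37.8% had an acceptor but no such pair, and 27.6% a donor alone, against 21.2% and 11.5% of the other segments. The poly(A) hexamer AATAAA stood in the last 50 bases of the plus strand, or its complement in the first 50 bases, in 28.1% of the segments and in 16.5% of the others. The segments were also longer, with a median of 582.5 bp against 196 bp. In the GENCODE M1 annotation of NCBIM37, 788 segments (62.1%) had both edges of a listed exon, against 83.4% of the others. Segments with one such splice site only, as the first and the last exon of a transcript have, were thus more frequent among the intron-annotated segments, as a count with no test. A segment that holds SNPs of both kinds was counted in both groups.

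What lies at these SNPs was settled from the annotation, independently of reads. Another gene held 1066 of the SNPs (29.15%) in an exon within the same files, 1706 (46.65%) lay in a GENCODE exon of the gene named as intronic, 501 (13.7%) only in a GENCODE exon of another gene, and 384 (10.5%) in no GENCODE exon. Among those in an exon of the named gene, 1597 had a protein-coding transcript there and 109 only transcripts of other types, 72 of them with a retained-intron transcript. Where the SNP fell in another gene and both strands were known (972 SNPs), the 2 genes ran on opposite strands at 725 SNPs and on the same strand at 245, and at 2 SNPs other genes ran on both strands. The counting is not stated to use strand, and reads of overlapping genes on opposite strands cannot be told apart here. Of the 3657 SNPs, 773 lay in an intron of a gene whose symbol GENCODE M1 does not list, and for these an exon of the named gene could not be looked up by name.

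The SNPs held 150580 to 214501 allele reads per pool, 4.06 to 4.6% of all exon SNP reads. The median was 23 reads per SNP over both alleles and all pools (quartiles 6 and 93), lower than the 65 of the other exon SNPs and above the 2 of the 253945 SNPs in the introns column. These medians cover only SNPs that the files list. The 10 SNPs with the most reads took 35.3% of the reads, and most of these lay in exons of B2m, Glul and H2-K1. For the tests, of SNPs closer than 18 bp the first one was kept, and reads were summed per segment. Of the 1268 segments, 946 reached 10 reads and were tested, 322 did not, and 773 rested on 1 SNP. Adipocyte genes were read deeply in every pool (333407 to 439323 reads at exon SNPs of 3 of 10 markers; the other 7 markers had no SNP). Markers of epididymis and testis (2 of 6 with a SNP) had 0 reads in 3 pools and 290 in the DxB male pool, those of macrophages (1 of 6 with a SNP) 962 to 1819, of endothelial cells (1 of 5) 122 to 221, of skeletal muscle 1 to 93, of ovary and uterus 0 to 2, and of lymphoid cells 0 to 1. Of the defining genes of these other cells and tissues, only those with a SNP could be read, and their part in the results below was not tested.

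**Figure D1:**
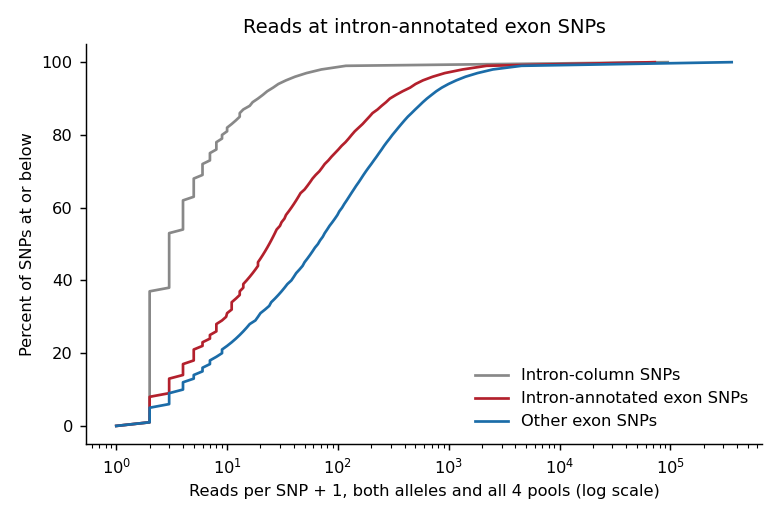
Percent of SNPs (vertical axis) at or below a number of reads over both alleles and all 4 pools (horizontal axis, reads + 1, log scale), for the intron-annotated exon SNPs, the other exon SNPs and the SNPs of the introns column. The intron-annotated exon SNPs, with a median of 23 reads, run between the introns column (median 2) and the other exon SNPs (median 65).

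Does the allele of one strain give more reads from these segments than the other? With edgeR's quasi-likelihood test over all 17410 exon parts (Benjamini-Hochberg adjusted p under 0.05), 192 of the 946 segments tested (20.3%) differed between the strains, where 15.6% of all parts and 15.3% of the 16464 other parts did. B was higher in 146 segments (15.4%, against 10.9% of all parts) and D in 46 (4.86%, against 4.67%). The test scales each allele library by its own size, so that directions and fitted log2 ratios stand relative to the general excess of B reads. D shares are plain shares of reads. A fit with 1 library size per pool keeps that excess. It called 204 segments (21.6%, against 15.4% of the other parts), 166 for B and 38 for D. The directions were shared by all 4 pools in 189 of the 192. In 70 called segments one allele had under 1% of the reads, and in 66 of these the allele that was read was B. The study sequenced D DNA at a subset of SNPs read from B only, and at each of them D carried the B base. Once SNPs at which either allele had under 1% of the reads (near-exclusive SNPs) were left out, 98 of 857 segments were called (11.4%, against 8.55% of the other parts). In a fit that pairs both alleles of the same animals (the pool as a block), 326 were called (34.5%, against 29.4%). The median log2 D to B ratio was −0.073 over the segments and −0.024 over all parts.

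The share of called segments moved with depth. With 10 to 99 reads 17.4% of 454 segments were called, against 11.8% of the other parts, and with 100 to 999 reads 23.6% of 398, against 16.4%. With 1000 reads or more the shares were close, 20.2% of 94 and 20.5% of 2478. By place, 50 of 293 tested segments (17.1%) that another gene of the files holds as exonic were called, 107 of 508 (21.1%) of those in a GENCODE exon of the named gene, 19 of 92 (20.7%) of those in a GENCODE exon of another gene only and 16 of 53 (30.2%) of those in no GENCODE exon. The last group was the only one of the 4 with as many calls for D (8) as for B (8).

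**Figure D2:**
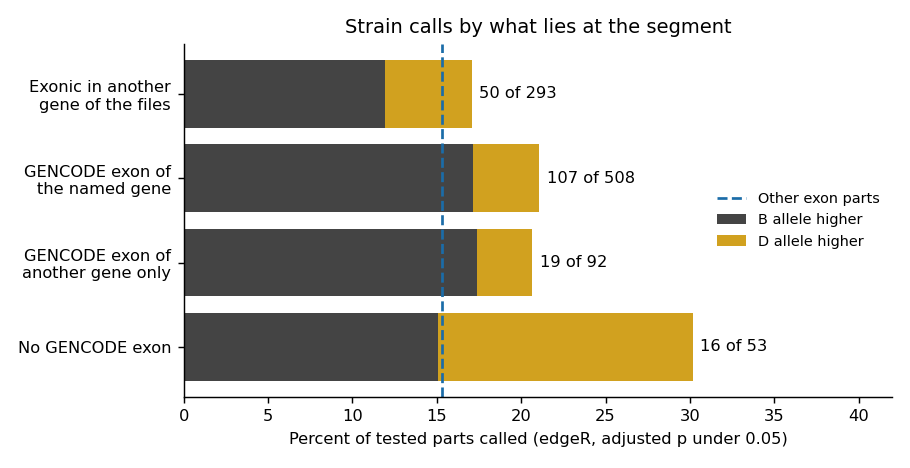
Percent of tested intron-annotated segments with a strain difference (horizontal axis; edgeR, adjusted p under 0.05), split by what the annotation has at the segment; dark bars stand for B higher, yellow bars for D higher, and the dashed line for the 15.3% of the other exon parts. Each of the 4 groups lies above the line, from 50 of 293 to 16 of 53 segments called.

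Over all segments together the B to D read ratio was 1.32, 1.35, 1.32 and 1.33 in the 4 pools. In the other exon parts it was 1.14, 1.18, 1.12 and 1.13. Every pool was thus further towards B in the intron-annotated segments, by 0.22 ± 0.0199 (SD, n = 4 pools) on the log2 scale; an exact two-sided sign-flip permutation test gave p = 0.13, the smallest p that 4 pools allow. Without near-exclusive SNPs, the difference was 0.0884. These ratios weight segments by their reads, and the pools share the same SNPs. The segment of AC099702.12 held 36956 B and 11028 D reads, and that of H2-K1 at 34136216 held 17260 and 12. The H2-K1 segment at 34136679 went the other way, with 8300 and 16726. The difference without these segments was not computed. Of the 879 SNPs with at least 100 reads, 61 (6.94%) had under 1% D reads and 3 (0.341%) under 1% B reads, against 4.72% and 0.164% of 18904 other exon SNPs.

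Several of the most read segments were exons of a gene other than the named one. Patl2, a gene for a protein of the oocyte, has an intron in which B2m lies on the opposite strand, and B2m codes for the light chain of MHC class I. In its exon at chromosome 2, 121976609 to 121976887, D took 50.1, 50.3, 50.3 and 50.7% of the reads in the 4 pools, from 72316 reads in all at the SNP shown above. The exon at 121973423 to 121973540 had a D share of 46.1, 44.5, 46.6 and 45.1%. Both values were stable between pools, and neither was called (adjusted p = 0.647 and 0.614), except with the pool as a block (adjusted p = 0.00108 and 0.000146). The last exon of B2m, at 121978387, was called for B, with D shares of 36.6, 35.1, 36.9 and 42.5% (log2 D to B ratio −0.63 ± 0.17 SE, adjusted p = 0.0189). The 3 segments of 1 gene thus gave D shares that did not overlap. Each of the 3 rests on 1 SNP, so that the contrast cannot be checked within an exon. How often exons of other genes differ in this way was not counted.

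The segment of AC099702.12 at chromosome 1, 155754994 to 155756844, is an exon of Glul, the glutamine synthetase. D took 23.6, 20.8, 23.8 and 23.5% of its reads in the 4 pools (log2 ratio −1.64 ± 0.17, adjusted p = 7.995e-06). Its SNPs differed among themselves. At the 12 SNPs with at least 20 reads the D share ran from 0.00736 to 41.8%, with a median of 29.8%, and the SNP shown above had 13578 B reads and 1 D read. Without such SNPs the ratio was −0.99 ± 0.17 (adjusted p = 0.0021), still in favour of B.

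In other deeply read segments the summed reads lay nearer to equality than in that of Glul. In Chpt1, which codes for a choline phosphotransferase of phospholipid synthesis, the segment at chromosome 10, 87936221 to 87938281 had a D share of 50.5, 50.7, 50.1 and 49.6% (adjusted p = 0.653), and in the segment of Hspg2 at chromosome 4, 137100280 to 137100418 D took 48.2, 48.4, 48.5 and 49% (adjusted p = 0.972). Hspg2 codes for perlecan, a proteoglycan of basement membranes. The segment in Shc4 at chromosome 2, 125498836 to 125501378 is an exon of Eid1 on the opposite strand, and its D share was 47.7, 47.7, 46.7 and 48.8% (adjusted p = 0.95). Spef1 and Cenpb, the centromere protein B gene, share the segment at chromosome 2, 131003025, with D shares of 44.9, 41.2, 42.7 and 39.6% (log2 ratio −0.35 ± 0.12, adjusted p = 0.0764). Under DESeq2 (adjusted p = 0.0199) and with the pool as a block (3.21e-06) this last segment was called for B. Single SNPs with at least 20 reads varied within these sums. Their D share ran from 38.9 to 56.5% in the Chpt1 segment and from 12.3 to 61.4% in that of Shc4. In the segment of Spef1 and Cenpb it ran from 0.0 to 53.6%.

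Among called segments in which the weaker allele still had 10 reads or more (56 with B higher and 32 with D higher), the largest B excess was in H2-K1, Supt6h, Ifi203, Ttc15, Pttg1, Tshr, Myo9b and Serpinb6a. H2-K1 is treated below with its other segments. The segment named for Supt6h, at chromosome 11, 78087184 to 78087404, is an exon of 2610507B11Rik on the opposite strand. It had 430 B and 12 D reads in the BxD female pool, 406 and 11 in the DxB female, 434 and 8 in the BxD male and 390 and 14 in the DxB male (log2 ratio −5.09 ± 0.21, adjusted p = 1.048e-09). All 4 pools lay within a D share of 1.81 to 3.47%, at 1 SNP.

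Ttc15, whose protein belongs to a trafficking complex, had a D share of 6.25, 22.7, 3.85 and 4.76% in the segment at chromosome 12, 29394372 to 29395252 (log2 ratio −3.18 ± 0.40, adjusted p = 5.451e-05), and the 4 SNPs with at least 20 reads lay between 9.52 and 14.3%. The other exons of Ttc15 had a D share of 51.8%, and the difference was called (−3.45 ± 0.37, adjusted p = 2.023e-06). A second intron-annotated segment of Ttc15, at 29435027, was at 56.4% and was not called against the other exons (adjusted p = 0.822). Tshr codes for the thyrotropin receptor, which adipocytes carry. Its segment at chromosome 12, 92760420 to 92760981 had D shares of 13, 6.59, 11.2 and 14.5%, where the other exons of Tshr had 55.6% (difference −3.40 ± 0.38, adjusted p = 3.251e-06). In Pttg1, securin, the segment at chromosome 11, 43233750 to 43234767 had D shares of 3.92, 9.09, 15.4 and 14.3%, but there the other exons were just as low (6.77%), and the part did not differ from them (adjusted p = 0.507). The 2 genes on chromosome 12 thus had a segment that departed from its gene, whereas the segment of Pttg1 did not depart detectably.

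Myo9b, an unconventional myosin, had D shares of 12.8, 7.69, 17.9 and 13.8% in the segment at chromosome 8, 73872230 (log2 ratio −2.66 ± 0.31, adjusted p = 2.439e-05), and Serpinb6a, a serine protease inhibitor, 8.22, 17.5, 14.5 and 16.7% at chromosome 13, 34027442 (−2.49 ± 0.26, adjusted p = 9.087e-06). Each of these rests on 1 SNP. Ifi203 had 204 B and 10 D reads in the segment at chromosome 1, 175850534 to 175852735 (log2 ratio −4.16 ± 0.41, adjusted p = 4.785e-06), but without near-exclusive SNPs the call was lost (−1.23, adjusted p = 0.265). It is one of a family of near-identical interferon-inducible genes, among which reads may have been split, and all 5 of its tested segments were called for B, most of them in exons that GENCODE gives to Mndal.

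The largest D excess was in segments of Serpina3h, Fau, 6030458C11Rik, Morn4, Pdxdc1, Recql5 (2 segments) and Ugt1a10. Fau codes for a ribosomal protein made as a fusion with a ubiquitin-like peptide. Its segment at chromosome 19, 6057967 to 6058325 lies in no GENCODE exon and had 12 B and 103 D reads in the BxD female pool, 16 and 102 in the DxB female, 16 and 76 in the BxD male and 11 and 70 in the DxB male. The D share stayed between 82.6 and 89.6% (log2 ratio 2.76 ± 0.20, adjusted p = 2.619e-07). The segment of Pdxdc1, a decarboxylase-like gene, at chromosome 16, 13835793 to 13836708 is covered by processed and retained-intron transcripts only. D took 77.3, 85.5, 84.9 and 86.6% of its reads, whereas the other exons of Pdxdc1 favoured B with a D share of 34.2%. Part and rest differed by 3.30 ± 0.29 (adjusted p = 1.649e-07), with the direction opposite on the 2 sides of equality. The Pdxdc1 segment rests on 1 SNP.

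In Recql5, a DNA helicase gene, 3 segments were tested, and all 3 are exons of 2210020M01Rik on the opposite strand. D took 76.8, 87.3, 82.4 and 85.4% at chromosome 11, 115761453 to 115761656, 79.2, 82.2, 74.5 and 83.5% at 115766996 to 115767583, and 69.7, 75, 66.7 and 90.0% at 115766469. The middle one of these rests on 8 SNPs, and before close neighbours were removed it held 9 SNPs with at least 20 reads, whose D shares ran from 75.1 to 85.5%. All were called for D (log2 ratios 2.43 ± 0.26, 2.07 ± 0.22 and 1.61 ± 0.35), and the other exons of Recql5 had a D share of 52.4%. Against these the first and the second segment differed (adjusted p = 0.00247 and 0.00782) and the third did not pass (0.172). Of the remaining segments, Serpina3h (an exon of Serpina3g, of a family of close copies) had 10 B and 71 D reads, 6030458C11Rik 24 and 132, and Morn4 11 and 60, each with D higher in 4 of 4 pools.

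The Ugt1a locus codes for UDP-glucuronosyltransferases, enzymes that attach glucuronic acid to bilirubin, steroids and drugs. Several first exons, each with its own promoter, are spliced onto the same downstream exons, and in the files these first exons lie within introns of Ugt1a10. The first exon of Ugt1a7c (chromosome 1, 89991576 to 89992553) had D shares of 77.7, 77.7, 72.6 and 69.8% in the 4 pools, and that of Ugt1a6a (90035048 to 90035906) 74.5, 74.9, 75.3 and 71.2%. In the first exon of Ugt1a6b (90003516 to 90004374) the shares were 26.3, 31.4, 41.9 and 40%. Thus the first 2 favoured D in every pool (log2 ratios 1.66 ± 0.25 and 1.60 ± 0.16, adjusted p = 0.000268 and 6.766e-06) and the third lay on the side of B without passing the test (−0.73 ± 0.37, adjusted p = 0.235). The first exon of Ugt1a9 had only 1 B and 17 D reads (adjusted p = 0.0471). Each of these first exons was counted at 1 SNP. The other exons of Ugt1a10 carried 6555 B and 1704 D reads, a D share of 20.6%. Against them the segments of Ugt1a7c and Ugt1a6a differed by 3.48 ± 0.29 and 3.43 ± 0.19 on the log2 scale (adjusted p = 5.532e-08 and 5.175e-10), and that of Ugt1a6b by 1.08 ± 0.34 (0.067). The locus holds near-identical copies, and reads of these may have been split between them. The locus as a whole was singled out after its values were seen.

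A second cluster of alternative first exons lay on chromosome 18. The gamma protocadherins, cell adhesion molecules, each join a large variable exon to common last exons, and in the files 19 such segments are intronic in Pcdhga2 or Pcdhgb4. They had 6792 reads in all, and 17 were tested, from 308 SNPs. B was higher in 3 (D shares of 32.9, 28.9 and 20.5%), D in 2 (69.7 and 64.4%), and 12 did not pass, with log2 ratios of the 17 from −1.83 to 1.31. Exons called for B and for D stood next to each other in one place. This cluster too was singled out after its values were seen, and its exons are close in sequence.

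**Figure D3:**
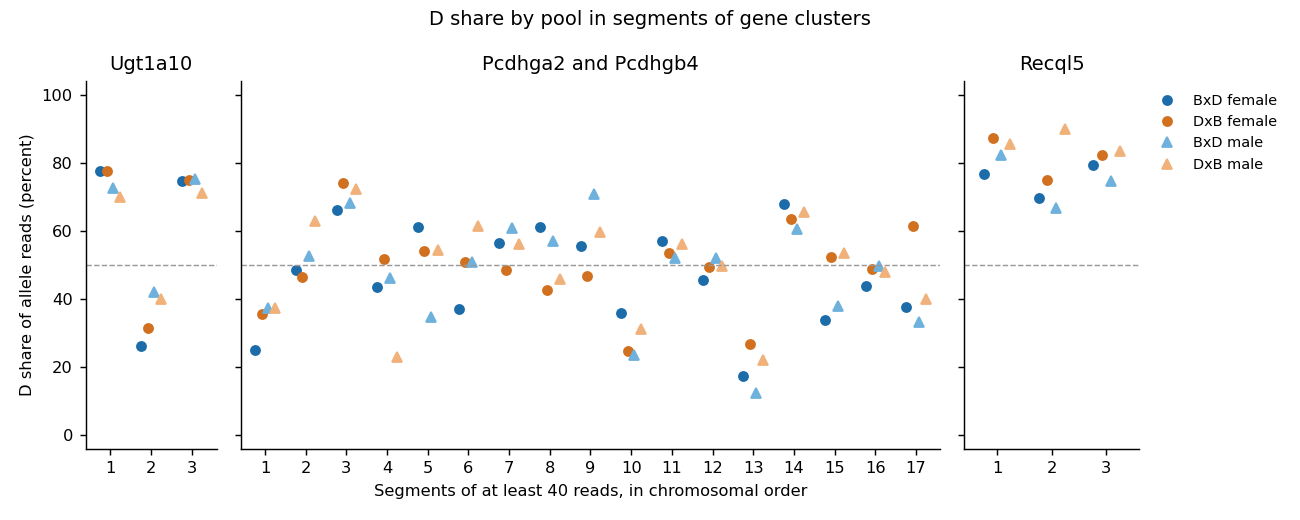
D share of allele reads in percent (vertical axis) in each of the 4 pools (points) for the intron-annotated segments of at least 40 reads of Ugt1a10, of Pcdhga2 and Pcdhgb4, and of Recql5, numbered in chromosomal order; the dashed line marks equal reads. In Ugt1a10 the first and the third segment lie near 75 and 74.0% and the second, Ugt1a6b, below the line at 35.7%, and all points of Recql5 lie above it.

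H2-K1 codes for the heavy chain of an MHC class I molecule, which is among the most variable genes between strains and has many close copies, so that its counts are uncertain. At chromosome 17, 34136216 to 34136491, B had 5069, 5016, 3827 and 3348 reads in the 4 pools, and D 7, 3, 1 and 1. At 34136679 to 34136948 D took 68.2, 66.9, 65.8 and 65.5%, and at 34133561 to 34133599 it took 35.1, 35.5, 29.9 and 37.5%. Each of these rests on 1 SNP, all 3 were called (log2 ratios −10.34, 1.11 and −0.81), and they do not overlap between segments in any pool. The other exons of H2-K1 had a D share of 23.4%. The SNP printed above for the first of these segments is its other SNP, left out of the sum as a close neighbour. It had 22211 B and 33 D reads, and in its window of 29 bases neither allele had an exact second copy in the genome. H2-Q10, of the same family, had 7 B and 230 D reads in the segment at 35611086 to 35611508, against a D share of 32.8% in its other exons (adjusted p = 1.531e-07).

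Do the segments carry the allele ratio of their gene? Both a segment and the other exons of the same gene had at least 10 reads in 718 pairs, from 706 segments and 557 genes. The other exons stand for all exon SNPs of the gene not annotated as intronic, which can include SNPs of the same segment. The difference in strain ratio was called in 94 (13.1%), where 8.03% of all 14617 parts and 7.77% of the 13899 other parts were called against the rest of their gene. The segment was shifted towards B in 55 (7.66%, against 4.64% of all parts) and towards D in 39 (5.43%, against 3.39%). Without near-exclusive SNPs 48 of 651 were called (7.37%, against 3.77%), and with the pool as a block 161 (22.4%, against 17.2%). Among the 307 pairs with at least 100 reads on both sides and 1% or more of the weaker allele, the median absolute difference of the log2 ratios was 0.355 and 11.4% differed by more than 1. In 8029 other parts of that kind these values were 0.253 and 5.78%. Across these parts, which share libraries and genes and are not replicates, Pearson's r between segment and rest was 0.234, against 0.477 for the other parts.

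**Figure D4:**
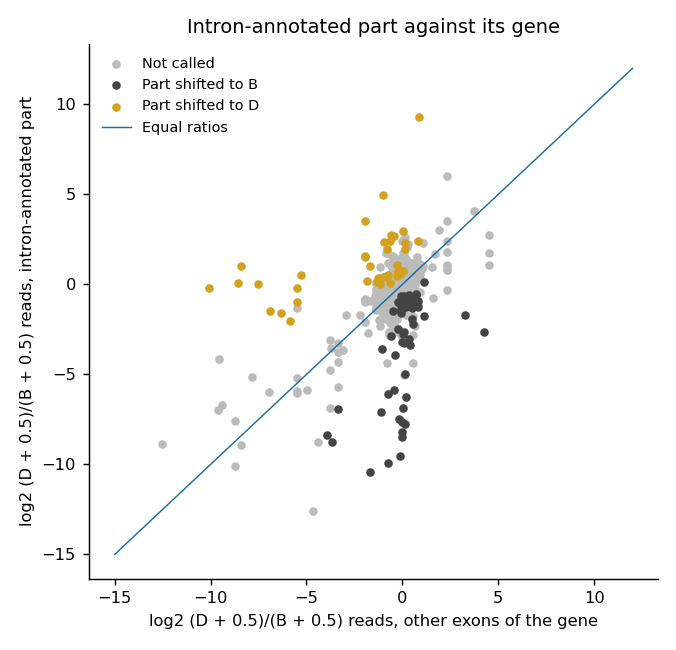
The log2 ratio of D to B reads (with 0.5 added to each) of an intron-annotated segment (vertical axis) against that of the other exons of its gene (horizontal axis) for 718 pairs, with the 55 called shifts towards B and the 39 towards D in colour and the line of equal ratios. The called points fall into a column at equal reads in the rest, with few or no D reads in the segment, a row of segments with reads of both alleles whose rest has few or no D reads, and a cloud around the centre.

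Many of the most extreme differences rested on SNPs with reads of one allele only. In Man1c1, a Golgi mannosidase, the segment at chromosome 4, 134258860 to 134260205 had 370 B reads and 0 D reads, which allows a D share of up to 0.811%, and in the other exons D took 50, 46.1, 48.3 and 44.8%. The same held for Mrpl49 (487 B and 0 D, upper limit 0.616%; rest 37.1%), Ftsjd2 (176 and 0, 1.7%; rest 49.7%), Rnf11 (149 and 0, 2.01%; rest 49.5%), St3gal3 (90 and 0, 3.33%; rest 46.5%) and Macf1 (38 and 0, 7.89%; rest 53.3%). Uba2, a subunit of the SUMO-activating enzyme, had 325 B and 1 D reads at chromosome 7, 34953392, where the rest had a D share of 51.9%. All of these were called (adjusted p from 1.591e-10 to 0.000512), and each is a value of 1 SNP. Whether D differs from B in its DNA at these SNPs was not tested, and the upper limits hold only where it does.

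The opposite case was rarer. Mtap7, which codes for a microtubule-associated protein, had 0 B and 315 D reads at chromosome 10, 19928245 to 19928836 (a B share of up to 0.952%), against a D share of 64.6% in its other exons (adjusted p = 2.605e-05). The 29 bases around this SNP with the B base occurred 3 times in the genome and with the D base never. Reads were longer than this window, and whether the copies bear on the absence of B reads was not tested. In Dgcr2, Fbxl5, Rab8b, Hnrnpab, Rpl34 and C1r the rest of the gene lacked D reads (0 to 7 beside 19 to 1379 B reads). Both alleles were read in the segment singled out here for each gene, at D shares of 46.2, 67.2, 51.0, 50.5, 58.7 and 46.3%. In Fbxl5 D was higher in all 4 pools (56.0 to 74.1%). The singled-out segments of Fbxl5 (in an exon of Bst1), Hnrnpab (Agxt2l2) and C1r (C1s) are exonic in another gene of the files. C1r was not called without the DxB female pool (adjusted p = 0.0753).

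Exact second copies were found at few of the SNPs read from B only. Among the 61 intron-annotated SNPs with under 1% D reads, the 29-base window with the D base had an exact copy elsewhere in the genome at 1 SNP (1.64%), against 3 of 815 SNPs (0.368%) with both alleles. Another exon SNP lay within 18 bp of 11 of the 61 (18%) and of 201 of the 815 (24.7%). In the other exons both features were more frequent at the SNPs with under 1% D reads (4.6% and 35.5% of 892) than at SNPs with both alleles (0.45% and 19.5%). Copies with mismatches and variants that the files do not list were not searched.

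Did the mother's and the father's allele differ? Parent of origin was called in 4 of the 946 segments (0.423%), where 0.046% of all 17410 parts and 4 of the 16464 other parts (0.0243%) were called. The 4 segments lay in H13, Meg3, Trappc9 and Plagl1, all of them on the list of imprinted genes, in which one parental copy is silenced. None of the 4 is held as exonic by another gene of the files. In the Trappc9 segment at chromosome 15, 72636030 to 72640754, which lies in no GENCODE exon, there were 1 B and 695 D reads in the BxD female pool, 700 and 8 in the DxB female, 0 and 597 in the BxD male and 481 and 2 in the DxB male. Of 2484 reads 99.6% were paternal (95% Wilson interval 99.2 to 99.8%, counting error only), and each of the 4 SNPs with at least 20 reads lay between 98.7 and 99.8% (log2 maternal to paternal ratio −7.71 ± 0.78, adjusted p = 0.0168). A second Trappc9 segment, at 72629954 to 72631832, had 46 of 48 reads from the father and did not pass (adjusted p = 0.452).

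Trappc9 codes for a subunit of a vesicle-tethering complex, and its other exons had a paternal share of 41.1, 52.5, 39.3 and 47.0% in the 4 pools. The deep segment differed from them by −8.03 (adjusted p = 9.11e-05), and the second by −4.69 (0.06). The files name the deep segment for Trappc9, but whether its reads come from a Trappc9 transcript or from another one in its intron was not tested. In H13, a signal peptide peptidase gene, the segment at chromosome 2, 152506787 to 152510882 is covered by a retained-intron transcript and had paternal shares of 80.8, 84.8, 85.5 and 86.9% (log2 ratio −2.45 ± 0.22, adjusted p = 0.0168). The other exons of H13 went the other way, with 23.9, 26.9, 28.1 and 27%. Against them this segment and the next, at 152511834 to 152512443 (75.9, 80.6, 93.8 and 80.6%), both differed (−3.94 and −3.74, adjusted p = 5.317e-07 and 0.000315). The third, at 152512884 to 152513678, is an exon of Mcts2 and had 18 of 25 reads from the father (adjusted p = 0.503). The second H13 segment was not called without the DxB female pool (0.0569) or with the pool as a block (0.0994). These 3 were the only calls on parental ratio against the rest of the gene among 718 (0.418%), where 0.0274% of all 14617 parts and 0.00719% of the 13899 other parts were called.

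Plagl1 codes for a zinc finger protein that holds back growth, and its segment at chromosome 10, 12846948 to 12851501 had paternal shares of 100, 97.8, 100 and 100% (255 of 256 reads, 1 SNP; log2 ratio −7.38 ± 0.83, adjusted p = 0.0263). Its other exons had 81.8, 96.6, 80.9 and 99.7%, and the difference did not pass (adjusted p = 1.0). Meg3 is a maternally expressed noncoding RNA. Its segment at chromosome 12, 110796850 to 110806810 had 1 paternal read of 113 over 10 SNPs (log2 ratio 6.20 ± 0.61, adjusted p = 0.0168), and no comparison within the gene was made for it. In the segment of Igf2, a growth factor of the same list, at chromosome 7, 149836673, the D share was 16.7, 5.56, 14.5 and 20% at 1 SNP, which is a difference between the strains (log2 D to B ratio −2.46 ± 0.40, adjusted p = 0.000632) and not between the parents (adjusted p = 1.0). The parental calls depended on single pools. None of the 4 was left without the BxD female, the BxD male or the DxB male pool, 1 (Trappc9) without the DxB female pool, and none with the pool as a block, although the ratios moved little, for H13 between −2.55 and −2.39 over the pools left out.

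**Figure D5:**
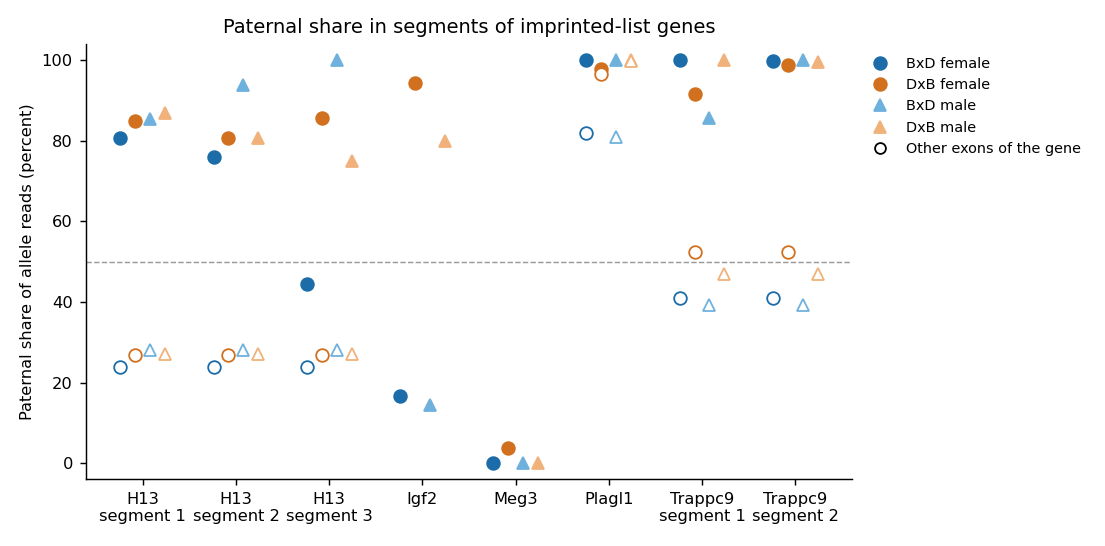
Paternal share of allele reads in percent (vertical axis) in each pool for the intron-annotated segments of at least 10 reads of genes on the imprinted list (filled) and for the other exons of the same gene where both could be compared (open); the dashed line marks equal reads. The first H13 segment lies between 80.8 and 86.9% while the other exons of H13 lie between 23.9 and 28.1%, and the deep Trappc9 segment lies between 98.9 and 100% while the other exons lie between 39.3 and 52.5%.

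A difference in strain ratio between the sexes was called in 0 of 946 segments by edgeR and by DESeq2 (0.0% of all 17410 parts by edgeR). At an unadjusted p under 0.05 there were 21 (2.22%, against 1.8% of all parts). Each sex had 2 pools.

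By function, 16 segments of immune and interferon genes were tested, from 9 of 109 genes on that list. Of these, 12 were called for a strain difference (75%, against 15.6% of all parts), 10 for B and 2 for D, with a median log2 ratio of −2.85 against −0.024 over all parts. Among them were the 3 segments of H2-K1, 5 of Ifi203 and 1 each of H2-Q10, H2-Q8 and Irf1, and most belong to families of near-identical copies. Ifih1, a sensor of viral RNA, had D shares of 34.2, 43.8, 43.3 and 35.8% and did not pass (adjusted p = 0.0782), except with the pool as a block (0.00392).

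Among lipid genes 1 of 8 tested segments was called (12.5%, below the 15.6% of all parts), and the median log2 ratio was −0.206. Lpin1, lipin 1, a phosphatidate phosphatase of triglyceride synthesis, had 53 B and 4 D reads in its segment at chromosome 12, 16591314 (log2 ratio −3.47 ± 0.46), and the other exons, with 23014 B and 11095 D reads, had a D share of 32.5% (difference −2.65 ± 0.54, adjusted p = 0.00258). Nr1h3, the liver X receptor alpha, had D shares of 53.3, 50, 48.8 and 44.4% in its most read segment, at chromosome 2, 91035122, Mgll, the monoglyceride lipase, 52.5, 47.7, 54.3 and 56.8%, and neither passed. A second Nr1h3 segment, at 91034888 to 91035192, overlaps the first and was singled out after its values were seen. It had D shares of 58.3, 63.9, 56.8 and 69.6% (adjusted p = 0.0901), and it differed from the other exons of Nr1h3, with 46.4% (0.85 ± 0.25, adjusted p = 0.0453). That call was lost without the BxD female (0.103), the DxB female (0.243) or the DxB male pool (0.184). The segment within Aqp7, the glycerol channel of adipocytes, is an exon of Nfx1 on the opposite strand and had D shares of 57.5, 54.5, 60.9 and 63.6% (adjusted p = 0.0609; 0.0105 with the pool as a block). That of Acsm3, an exon of Exod1, had 160 B and 102 D reads (adjusted p = 0.251; 0.0434 with the block).

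Among splicing and RNA-binding factors 0 of 5 segments were called by edgeR, where 15.6% of all parts were, 1 had an unadjusted p under 0.05 and DESeq2 called 1. That segment lay in Ddx17, an RNA helicase, at chromosome 15, 79362102 to 79363347, outside any GENCODE exon and with the donor shown above. It had D shares of 58.0, 55.3, 60.2 and 57.3%, D higher in 4 of 4 pools (log2 ratio 0.57 ± 0.18, adjusted p = 0.0509; DESeq2 0.0173). The other exons of Ddx17 had a D share of 44.8%, and the difference from them was called (0.75 ± 0.22, adjusted p = 0.0432), but with any 1 pool left out it was not (adjusted p from 0.055 to 0.166). The neighbouring segment at 79365091 had a D share of 56.0% and did not pass (0.221). A segment of Hnrnph1 was the only other one of the 5 called against its gene (D share 52.9% against 21.5%, adjusted p = 0.0413). It was singled out after its values were seen, and the call was lost without the BxD female (0.285), the BxD male (0.1) or the DxB male pool (0.282). Ccnl2 and Son, both with roles in splicing, had D shares of 50.5 to 53.5% and 38.6 to 50%.

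Of 4 segments of extracellular matrix genes 1 was called (25%, against 15.6% of all parts), in Mfap5, a microfibril protein, with 2707 B and 2 D reads at chromosome 6, 122476805 to 122476878. The second segment of Hspg2, at 137099439, had D shares of 44.3, 41.5, 42.3 and 42.8% (adjusted p = 0.624; 0.000984 with the pool as a block), and that of Timp2, an inhibitor of metalloproteases, held 29 B and 10 D reads. Of 8 segments of chromatin and transcription genes 1 was called (12.5%, against 15.6%). It lies in Thra, a thyroid hormone receptor gene, and is an exon of Nr1d1, the clock repressor on the opposite strand, with 698 B and 3 D reads at 1 SNP. Med1, Nfia and Kdm2a had D shares of 54.7, 55.5 and 43.7% and did not pass. No gene of the respiratory chain and ATP synthase list (65 genes) held an intron-annotated segment.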

How the data were processed

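The authors deposited raw allele counts of reads per SNP for 4 pools, without normalization. They aligned mates as single reads to mm9 with mrsFAST (up to 3 mismatches, known D variants masked), placed the rest with TopHat and kept unique positions; their processing notes also name CASAVA. PCR copies were not described as removed, so intervals cover counting error only. The 1530 autosomal SNPs that list 1 base for both strains were left out. The first SNP within 18 bp was kept, reads were summed per exon part, and parts of 10 reads or more were tested with edgeR 4.0.16 in R 4.3.3 (TMM, quasi-likelihood test, Benjamini-Hochberg, threshold 0.05). The factor was strain, parent, strain by sex, or the interaction of strain or parent with part and rest. SE was taken as the log2 ratio over the square root of F. Alleles of a pool come from the same animals and deviated together (r = 0.541, 0.549, 0.422 and 0.402 over 10812 parts). The main fits nevertheless held no term for the pool. On simulated strain counts of 17410 parts 85% of changes of 1 and 100% of changes of 2 (log2) were recovered, with 14 false calls. Against the rest (14617 parts) the values were 59 and 99%, with 4. The changes were planted only in deeply read parts, with 1 fixed spread and with the alleles drawn independently. These shares therefore do not give the recovery at segments with few reads. Alternatives were DESeq2 1.42.0, library sizes, filters, SNP sets, pools left out, the block, a strain covariate and the label identity. SNPs exonic in another gene were left out as an alternative chosen after seeing the data. Named were called segments with 1 direction in all pools and 10 reads of the weaker allele (8 each way), the 10 most read, 8 differences each way against the rest, all parental calls, imprinted-list segments of 10 reads, and 4 per other list; others are said to be chosen after. The members and lists were chosen with earlier results of these data known. GENCODE M1 and NCBIM37 were the reference. Results of some genes are not reported here.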

Additional observations from a re-analysis of the deposited data

How the results depend on the processing

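The 192 strain calls became 98 without near-exclusive SNPs (either allele under 1% of the reads) and 326 with the pool as a replicate block; leaving out a pool gave 140 to 153. The 94 differences from the rest of the gene became 48 and 161 under the same settings, and 63 to 74 without a pool. The 4 parental calls became 0 with the pool as a block and 0 with cross and sex from the label, and 0 to 1 without a pool. The 3 parental differences from the rest became 0 with the label identity, 2 with the block and 2 to 3 without a pool. For strain by sex, 0 calls became 4 with the label identity and stayed at 0 without a pool (0 to 0). The B to D difference from the other exons (0.22 on the log2 scale) was 0.269 with all SNPs, 0.0884 without near-exclusive SNPs, 0.189 without SNPs exonic in another gene, and 0.215 to 0.229 without a pool.

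Of the 75 values of named segments, some changed sign. With the label identity the parental ratios were −0.0487 for Meg3, 0.0979 for Trappc9 at 72636030, 0.444 for Plagl1, and 0.174 and 0.992 for H13 at 152511834 and 152512884, and against the rest 0.159 and 1.02 for these H13 segments, 0.163 for Plagl1 and 0.054 for Trappc9. The small strain ratios of Shc4 (0.00823 with DESeq2), Hspg2 at 137100280 (−0.0823) and Nr1h3 (−0.0312; both with 1 library size per pool), Nr1h3 (−0.0118 to 0.154 over the pools left out) and Kdm2a without near-exclusive SNPs (0.054) also turned, as did the parental ratio of Igf2 (−0.189 to 1.4 over the pools left out). The causes were not tested. Over all alternatives 818 values kept side and direction, 42 lost and 21 gained a call, and 16 turned. Besides those given above, the block called Ddx17 at 79365091 (adjusted p = 0.00933) and Med1 (0.0431).

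Depth limits the 322 segments of under 10 reads, which were not tested, and the 773 segments of 1 SNP, whose ratio cannot be checked within the segment.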

Other observations

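The files carry a column with the entries OKAY and NOOKAY, whose meaning the sources used here do not give. NOOKAY stood beside 14.41% of the intron-annotated exon SNPs and 2.148% of the other exon SNPs. It was not used to choose SNPs.

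Segments in no GENCODE exon had a B to D read ratio of 0.622 in the BxD female, 1.34 in the DxB female, 0.603 in the BxD male and 1.31 in the DxB male pool over all their SNPs. Without the deep Trappc9 segment the ratios were 0.854, 0.867, 0.812 and 0.887, so that D had more reads than B in every pool. Of the 5764 B and 6771 D reads left, the Ddx17 segment at 79362102 held 1675 and 2311. The segment of Fau held 55 and 351, and that of Mtap7 0 and 315. The ratio without these was not computed, and called segments of this group favoured B (8) as often as D (8).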
